A study of Mus musculus with 10 samples.

Results

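Transcripts of the mitochondrial respiratory chain were examined in isolated mouse glomeruli. The set held 38 nuclear genes named by complex: 20 subunit genes of complex I, 1 complex I assembly factor (Ndufaf1), 4 genes of complex II, 5 of complex III, the cytochrome c gene Cycs and 7 genes of complex IV. Each gene was read from 1 probe set, the group of array probes designed against a transcript. Of the probe sets that the array annotation paired with exactly 1 gene, the one with the highest mean over all arrays was used. This gave values for 37 of the 38 genes, out of 18193 genes measured in the same way. Cox7b of complex IV had no such probe set. The 37 genes were each described by complex, by genotype, and by their relation to the amount of tubule RNA in a preparation.

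Glomeruli came from 10 male mice aged 27 days, and each mouse gave 1 array of total RNA. Of these mice 5 were heterozygous for a Wt1 allele with the R394W change (Wt1 +/R394W, called mutant here), so every cell kept a wild-type copy. The other 5 were wild-type littermates (Wt1 +/+). All were of FVB/N background after 4 backcross generations, so segments of another strain can remain in the genome. By the account of the submitters albuminuria was slight in the mutants, and light microscopy showed no lesions of the mesangium. The product of Wt1 is a DNA-binding regulator of podocytes, which form the filter of the glomerulus, and the comparison asks how glomerular transcripts differ in mice at this early stage. Mice are numbered 1 to 5 within a genotype, and a number does not pair animals across genotypes.

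The respiratory chain lies in the inner mitochondrial membrane. Complex I accepts electrons from NADH and complex II, which is also the succinate dehydrogenase of the citric acid cycle, accepts them from succinate. Complex III passes them to cytochrome c, and complex IV passes them on to oxygen, while complexes I, III and IV pump the protons that drive ATP synthase. Proximal tubule cells, which reabsorb most of the filtrate and depend on oxidative metabolism, are among the cells of the kidney richest in mitochondria.

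The values were log2 expression values whose array medians lay within 0.0817 of each other, and arrays correlated with each other at 0.985 to 0.997 over all probe sets. The podocyte genes Nphs1 (12.70 to 13.11), Podxl and Synpo were strongly measured on all 10 arrays, as were endothelial markers such as Kdr (12.20 to 12.87). The amount of tubule differed between preparations. Tubule level, the mean log2 value of the proximal tubule genes Lrp2 (an endocytic receptor), Slc34a1 (a phosphate transporter) and Miox (an enzyme of inositol breakdown), was 9.79, 8.51, 9.28, 9.85 and 5.95 in wild types 1 to 5. It was 10.13, 9.48, 8.85, 11.17 and 6.73 in mutants 1 to 5. Wild type 5 and mutant 5 were the lowest of their genotypes, mutant 4 was the highest of all, and the genotypes overlapped. From the lowest to the highest mouse tubule level spanned 5.22 log2 units, or 37.3-fold. The whole glomerular preparation was assayed, so fewer cells of a type and less RNA per cell cannot be told apart.

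Among the 37 genes the assembly factor Ndufaf1 alone passed the test of genotype, and it was higher in mutants. Ndufaf1 encodes a chaperone that helps to build the membrane arm of complex I and is not part of the finished complex. Its log2 value was 8.47, 8.32, 8.33, 8.34 and 8.12 in wild types 1 to 5. It was 8.78, 8.96, 8.87, 8.98 and 8.88 in mutants 1 to 5. Every mutant lay above every wild type, with wild type 5 the lowest mouse and mutant 4 the highest. The mutant minus wild-type difference was 0.58 ± 0.07 (SE, n = 5 mice per genotype) in log2 units, or 1.49-fold, with a 95% interval of 0.42 to 0.74 and an adjusted p of 0.00324 by limma with Benjamini-Hochberg adjustment over all 45037 probe sets. A two-sided exact permutation test of this gene over all 252 arrangements of the mice gave p = 0.00794, the smallest value it can give. Any gene whose genotypes do not overlap gives this value, and the test was run on this gene alone. It therefore restates the lack of overlap and adds no separate support. The call of 1 of 37 genes stands beside 0.853% of all probe sets called by genotype in either direction (0.391% higher and 0.462% lower) and 1.26% of all genes. Genotypes did not overlap in 1 of the 37 genes, beside 3.67% of all genes.

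**Figure D1:**
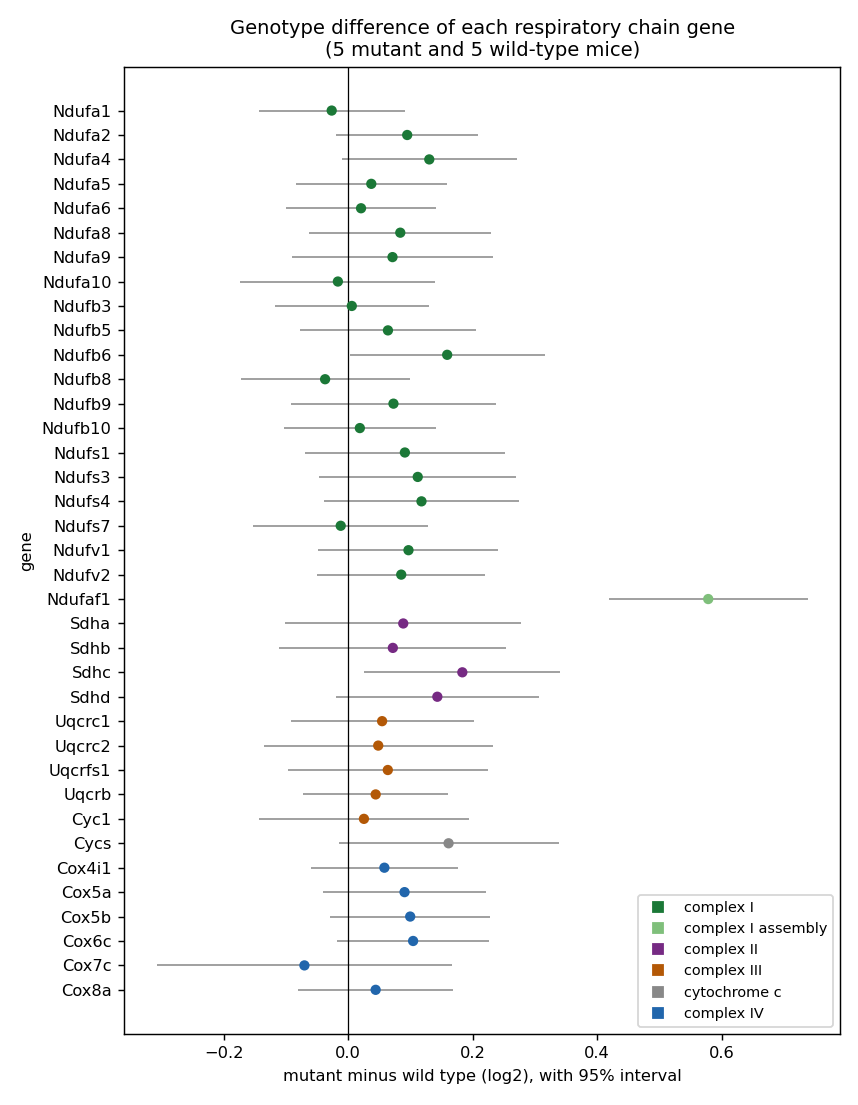
Mutant minus wild-type difference of each of the 37 respiratory chain genes in log2 units (points) with its 95% interval from limma (lines), 5 mice per genotype, coloured by complex. Ndufaf1 stands at 0.58, and the other 36 genes lie between -0.07 and 0.18.

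The difference of Ndufaf1 was of similar size when mice were compared at equal tubule level. With tubule level as a covariate it was 0.55 ± 0.07 (SE, limma adjusted p = 0.00327), and 1 of 37 genes was again called, beside 0.928% of probe sets and 1.36% of genes in that fit. The slope of Ndufaf1 on tubule level was 0.041 ± 0.023 (SE, limma adjusted p = 0.684). When the mice were limited to wild types 2 to 4 and mutants 1 to 4 the difference at equal tubule level was 0.55 with a limma adjusted p of 0.0887, so the call was lost there. The level of the podocyte list, the mean of 10 marker genes, was 12.53 to 12.68 across wild types, against 12.33 to 12.71 across mutants. The level of 9 blood and leukocyte markers was 6.73 to 7.53 across wild types, against 6.55 to 7.32 across mutants. Of these markers 1 was called, beside 1.26% of all genes. It was the macrophage receptor gene Csf1r, lower in mutants by 0.99 ± 0.17 (SE, limma adjusted p = 0.022). The list as a whole did not share this direction, with 5 differences above 0, 4 below and a median of 0.06. At an unadjusted limma p under 0.05 there were 2 of the 9, 0 of them higher in mutants, beside 11% of all genes in either direction. The level of 9 mesangial and smooth muscle markers was 10.37 to 10.72 across wild types and 10.64 to 11.16 across mutants, with mutants 1 and 5 above every wild type. None of these markers was called. Of the 9, 2 passed an unadjusted limma p of 0.05, both higher in mutants, beside 11% of all genes in either direction. The largest difference was in the smooth muscle actin gene Acta2 (0.89 ± 0.27 SE, limma adjusted p = 0.243). The endothelial level was 12.06 to 12.21 across wild types, against 11.89 to 12.25 across mutants, and the parietal level 7.99 to 8.26, against 8.01 to 8.31. Levels can hide opposite changes of single markers. No podocyte, endothelial or parietal marker was called. At an unadjusted limma p under 0.05 there were 3 of 10 podocyte markers (1 higher), 2 of 10 endothelial and 2 of 6 parietal (0 higher in both), beside 11% of all genes. Endothelial differences were below 0 in 9 of 10 genes. The part of these cell types in the difference of Ndufaf1 was not tested.

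Ndufaf1 lies on chromosome 2, as does Wt1. In the gene order of RefSeq 91 measured genes lie between them, of which 4 (4.4%) were called by genotype, beside 2.14% of 1399 genes on chromosome 2 and 1.19% of 16794 genes on other chromosomes. None of the 10 nearest measured neighbours of Ndufaf1 was called by limma, 5 on each side. At an unadjusted p under 0.05 there was 1, Tyro3, a receptor tyrosine kinase gene that was measured 0.54 ± 0.14 (SE) lower in mutants, with an adjusted p of 0.139. The set has 2 other genes on chromosome 2, the complex I subunits Ndufs3 and Ndufa8, with differences of 0.11 ± 0.07 (SE) and 0.08 ± 0.07 (SE) and limma adjusted p of 0.703 and 0.771. Whether position on chromosome 2 bears on the difference of Ndufaf1 was not tested. Probe sequences and the alleles of these mice were not used here, so a difference in transcript level and a difference in how the probes of its 1 probe set bind an allele cannot be told apart. Wt1 itself was 0.33 ± 0.10 (SE) higher in mutants and was not called (limma adjusted p = 0.244).

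**Figure D2:**
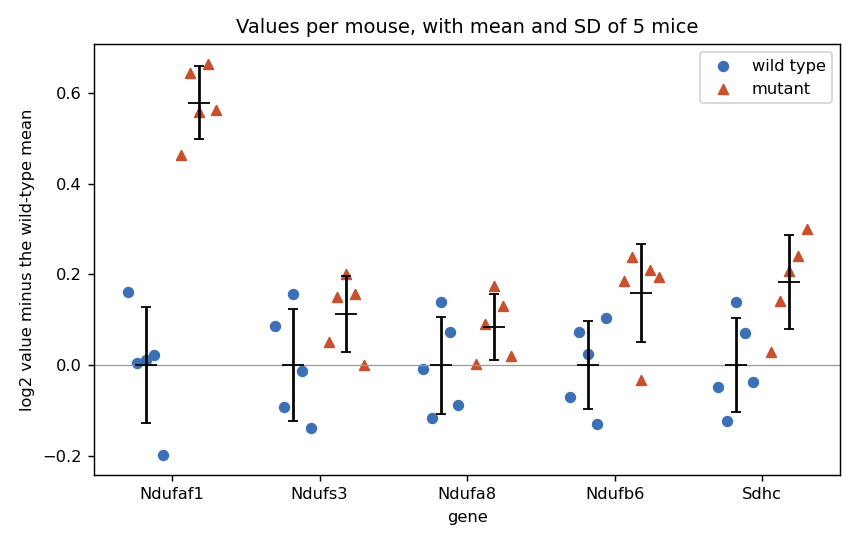
Log2 value of each mouse minus the wild-type mean of the gene (points, 5 mice per genotype) with the mean and SD (bars) for Ndufaf1, the other genes of the set on chromosome 2 (Ndufs3 and Ndufa8) and the genes with the next smallest genotype p (Sdhc and Ndufb6). The mutants of Ndufaf1 lie clear of the wild types, and the genotypes of the other 4 genes overlap.

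The promoter of Ndufaf1 is shown because it belongs to the gene that was called, and those of Sdha, Sdhb and Sdhd because genes of complex II moved most closely together across mice. The sequences are from RefSeq (build GRCm38.p6), written 5′ to 3′ on the strand of the gene, from 250 bases before to 50 bases after its start. Capitals mark matches on either strand to motifs of regulators known for respiratory chain promoters: NRF1 (GCGCANGCG), the ETS core bound by GABP (CCGGAAG), ESRRA (TCAAGGTCA) and YY1 (AAGATGGC).
Ndufaf1 (chr2:119662785-119663084, minus strand): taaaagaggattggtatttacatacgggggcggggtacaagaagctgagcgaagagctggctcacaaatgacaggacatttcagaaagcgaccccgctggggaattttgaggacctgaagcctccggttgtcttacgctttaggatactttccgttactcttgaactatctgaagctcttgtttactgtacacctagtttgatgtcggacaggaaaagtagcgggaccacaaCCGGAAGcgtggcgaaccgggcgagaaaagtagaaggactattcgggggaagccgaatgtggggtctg
Sdha (chr13:74350191-74350490, minus strand): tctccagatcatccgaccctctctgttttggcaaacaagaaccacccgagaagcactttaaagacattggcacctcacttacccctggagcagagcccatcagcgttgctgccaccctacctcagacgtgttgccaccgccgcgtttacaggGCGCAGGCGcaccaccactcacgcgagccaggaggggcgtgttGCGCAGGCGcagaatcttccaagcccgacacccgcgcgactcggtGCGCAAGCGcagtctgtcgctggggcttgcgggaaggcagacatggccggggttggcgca
Sdhb (chr4:140961021-140961320, plus strand): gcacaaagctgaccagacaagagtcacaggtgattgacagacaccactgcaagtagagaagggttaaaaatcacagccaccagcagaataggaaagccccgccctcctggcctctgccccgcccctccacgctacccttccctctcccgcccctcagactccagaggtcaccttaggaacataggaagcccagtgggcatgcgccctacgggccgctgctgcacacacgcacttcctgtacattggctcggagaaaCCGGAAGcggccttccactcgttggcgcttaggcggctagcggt
Sdhd (chr9:50603800-50604099, minus strand): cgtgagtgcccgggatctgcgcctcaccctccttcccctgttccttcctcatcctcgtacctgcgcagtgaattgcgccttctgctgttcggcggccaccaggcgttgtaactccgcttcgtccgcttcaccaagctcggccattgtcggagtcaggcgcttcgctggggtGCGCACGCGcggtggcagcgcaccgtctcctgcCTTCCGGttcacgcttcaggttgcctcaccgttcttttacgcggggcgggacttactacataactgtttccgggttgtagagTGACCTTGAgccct

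Ndufaf1 and Sdhb each held 1 ETS match, Sdha held 3 NRF1 matches, and Sdhd held 1 match each to NRF1, ETS and ESRRA. The table of promoters matched 29 of the 38 genes, with 30 promoters in all. Not matched were Ndufa2, Ndufb9, Ndufs1, Sdhc, Uqcrc2, Uqcrb, Cyc1, Cox4i1 and Cox6c. The NRF1 motif was in 8 of the 29 matched genes (27.6%), beside 7.03% of all 27025 genes with promoters of the same length. The ETS core was in 6 genes (20.7%, beside 9.93% of all genes), YY1 in 4 (13.8%, beside 3.19%) and ESRRA in 1 (3.45%, beside 0.47%). At least 1 of the 4 motifs was in 17 genes (58.6%), beside 16.3% of all 32851 promoters, a share counted by promoter and not by gene. The other 12 genes held none of these letters in the window, among them Uqcrfs1, Ndufa10, Ndufa4, Cox5a and Cox5b. Matches were counted for each motif by itself, and matches of 1 motif can overlap each other. A match describes the sequence without showing that a factor binds it.

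Across the 37 genes differences by genotype were small and mostly above 0. The estimate was above 0 in 32 of 37 genes, beside 51.7% of all genes, with a median of 0.07 beside 0.004 over all genes. At an unadjusted p under 0.05 there were 3 genes, all higher in mutants (Ndufaf1, Sdhc and Ndufb6), beside 5.62% of all genes that were higher at this p and 11% in either direction. The mean deviation of the 37 genes from their own means was -0.02, -0.09, 0.04, -0.02 and -0.11 in wild types 1 to 5 and 0.01, 0.04, 0.03, 0.12 and 0.00 in mutants 1 to 5. Wild types 2 and 5 were low and mutant 4 was high, while wild type 3 lay level with mutant 2. Wild types 2 and 5 were each the lowest mouse for 13 genes, and mutant 4 was the highest for 20. Mutant 4 was also the mouse with the highest tubule level and wild type 5 the one with the lowest. Wild type 2 had a tubule level of 8.51, and mutant 5, next lowest at 6.73, was the lowest mouse for only 2 genes. The part of tubule in these ranks was not tested gene by gene. With tubule level as a covariate the median difference was 0.05.

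**Figure D3:**
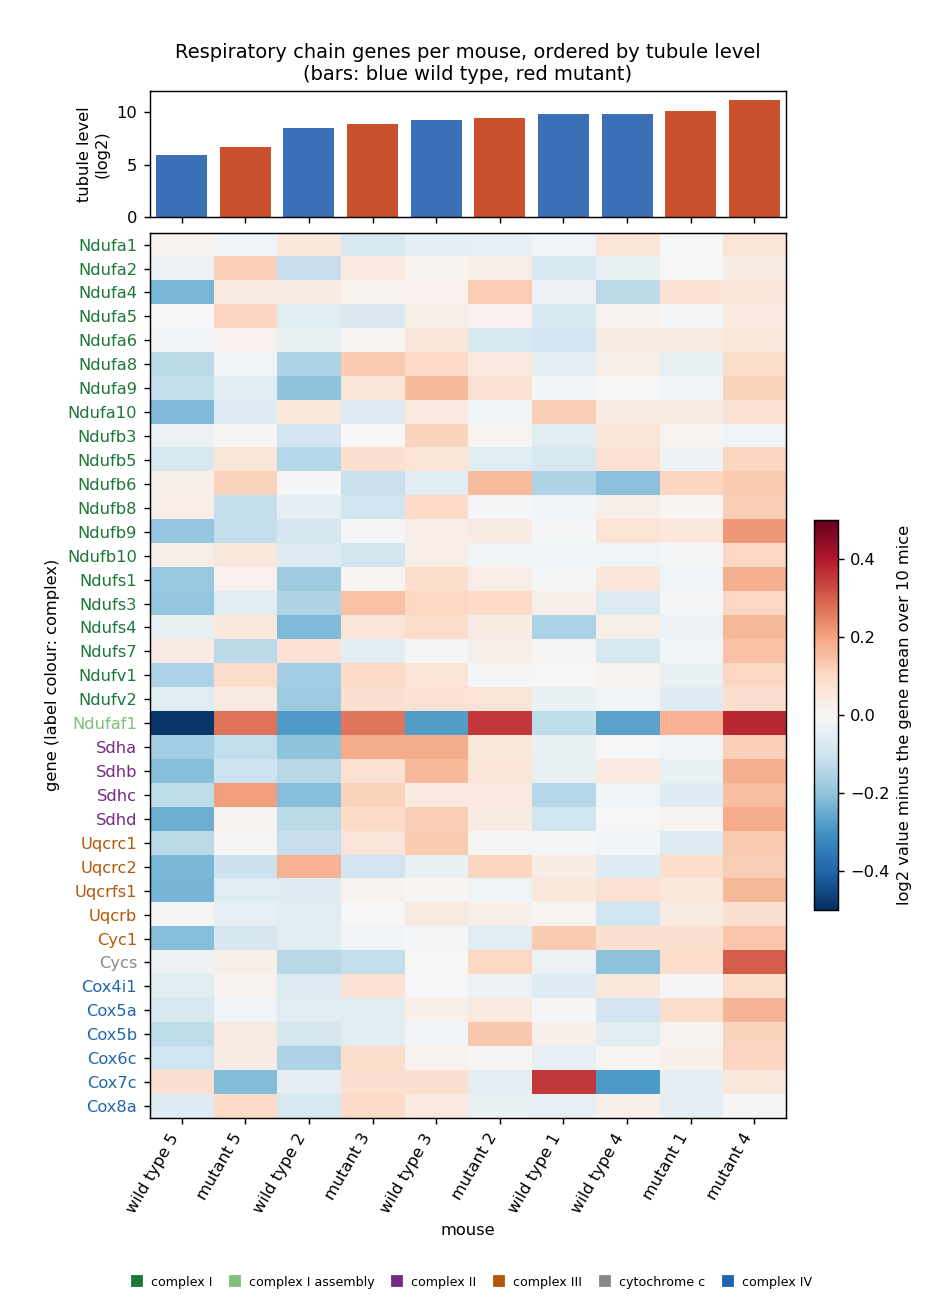
Log2 value of each of the 37 genes minus its mean over 10 mice (colour, from -0.5 to 0.5), with mice ordered by tubule level (bars, log2) and gene names coloured by complex. Ndufaf1 is low in all wild types and high in all mutants, and mutant 4, at the right, is the highest mouse for 20 genes.

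In complex I none of 20 subunit genes was called by genotype with limma, and 1 passed an unadjusted p of 0.05. That gene was Ndufb6, an accessory subunit of the membrane arm, with 11.45, 11.60, 11.55, 11.39 and 11.63 in wild types 1 to 5 and 11.71, 11.76, 11.49, 11.73 and 11.72 in mutants 1 to 5. Only mutant 3 fell within the range of the wild types, and the difference was 0.16 ± 0.07 (SE, limma adjusted p = 0.526). Ndufa4, first described in complex I and now counted with complex IV, differed by 0.13 ± 0.06 (SE, limma adjusted p = 0.581). The core subunits that carry flavin or iron-sulfur clusters showed 0.09 ± 0.07 for Ndufs1, 0.10 ± 0.07 for Ndufv1, 0.09 ± 0.06 for Ndufv2 and -0.01 ± 0.06 for Ndufs7 (SE). Of the remaining accessory subunits, Ndufa2 differed by 0.09 ± 0.05, Ndufa9 by 0.07 ± 0.07 and Ndufb9 by 0.07 ± 0.08, while Ndufa1 (-0.03 ± 0.05), Ndufa10 (-0.02 ± 0.07) and Ndufb8 (-0.04 ± 0.06) lay below 0 (SE). Ndufs4, a subunit whose loss impairs the assembly of complex I, differed by 0.12 ± 0.07 (SE, limma adjusted p = 0.68). Over the 20 genes the difference ran from -0.04 (Ndufb8) to 0.16 (Ndufb6), with a median of 0.07, and 16 were above 0. The highest upper bound of a 95% interval among them was 0.32, so larger rises lay outside the interval of the 1 probe set used for each subunit. This does not cover other probe sets of these genes, of which one of Ndufv1, given below, differed by 0.56 ± 0.18 (SE, limma adjusted p = 0.273).

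Complex II showed the highest median difference among complexes with more than 1 gene, 0.12 over 4 genes, and none was called by limma. Sdhc, a membrane anchor, was 11.05, 10.97, 11.24, 11.17 and 11.06 in wild types 1 to 5 and 11.12, 11.24, 11.30, 11.34 and 11.39 in mutants 1 to 5. Mutant 1 lay among the wild types, mutant 2 lay level with the highest of them, and mutants 3 to 5 lay above them. The difference was 0.18 ± 0.07 (SE), with an unadjusted limma p of 0.0261 and an adjusted p of 0.428. The other anchor, Sdhd, differed by 0.14 ± 0.07 (SE, limma adjusted p = 0.604). The flavoprotein gene Sdha and the iron-sulfur gene Sdhb differed by 0.09 ± 0.09 and 0.07 ± 0.08 (SE). Across all 10 mice the 4 genes ran together, with a median Pearson r of 0.81 over their 6 pairs, beside 0.43 over all 666 pairs of the set, 0.37 over pairs of complex I, 0.49 of complex III and 0.27 of complex IV. Sdha was 11.74, 11.57, 11.96, 11.77 and 11.60 in wild types 1 to 5 and 11.76, 11.83, 11.96, 11.89 and 11.65 in mutants 1 to 5. Sdhb was 11.71, 11.60, 11.91, 11.79 and 11.53 in the same wild types and 11.71, 11.80, 11.82, 11.93 and 11.64 in the mutants. Sdhd was 11.06, 11.03, 11.28, 11.16 and 10.92 in the wild types and 11.18, 11.20, 11.26, 11.35 and 11.18 in the mutants. In all 3 genes wild types 2 and 5 were the lowest mice, wild type 3 was the highest wild type, and the genotypes overlapped. The correlations share arrays and tubule content and are given as a description.

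In complex III the differences of all 5 genes were above 0, from 0.03 (Cyc1) to 0.06 (Uqcrfs1), and none passed an adjusted or unadjusted limma p of 0.05. Cytochrome c, the mobile carrier between complexes III and IV, was 12.58, 12.47, 12.61, 12.40 and 12.59 in wild types 1 to 5 and 12.70, 12.71, 12.49, 12.91 and 12.64 in mutants 1 to 5. Mutant 3 lay among the wild types and the other mutants lay above them. The difference of Cycs was 0.16 ± 0.08 (SE, limma adjusted p = 0.584). In complex IV none of 6 genes passed an adjusted or unadjusted limma p of 0.05, and 5 were above 0. Cox6c, a small structural subunit, differed by 0.10 ± 0.06 (SE) and Cox5b, which sits on the matrix side, by 0.10 ± 0.06 (SE). Cox7c differed by -0.07 ± 0.11 (SE), and the better measured of its 2 single-gene probe sets was weak, with a mean of 6.79. The other, with a mean of 5.00, gave 0.05 ± 0.14 (SE).

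The second question was whether these genes followed tubule RNA across preparations, and most were near flat. The slope within genotypes, in log2 units of a gene per log2 unit of tubule level, was called for 0 of 37 genes by limma, beside 1.02% of probe sets (0.999% higher and 0.0178% lower) and 1.6% of genes. At an unadjusted p under 0.05 there were 6 genes, all with slopes above 0 (Ndufb9, Uqcrfs1, Cyc1, Ndufa10, Sdhb and Uqcrc2), beside 4.31% of all genes with slopes above 0 at this p and 8.45% in either direction. Slopes were above 0 in 31 of 37 genes, beside 36.6% of all genes, with a median of 0.022 beside -0.010 over all genes. A shift of this kind was not particular to the set, as slopes of other mitochondrial lists, given below, show. They ran from -0.018 (Ndufb6) to 0.065 (Ndufb9), and the highest upper bound of a 95% interval was 0.111 (Sdhb). Of 22 further proximal tubule markers 19 were called, with a median slope of 0.75 and 0.39 as the lowest called slope (Slc22a6, an organic anion transporter). No interval of a gene of the set reached the slope of a called tubule marker, but calling itself picks out steep slopes. Over all 22 markers, which were listed as tubule genes beforehand, slopes ran from 0.0084 to 1.22. The lowest of them lay below the upper bound of 0.111.

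**Figure D4:**
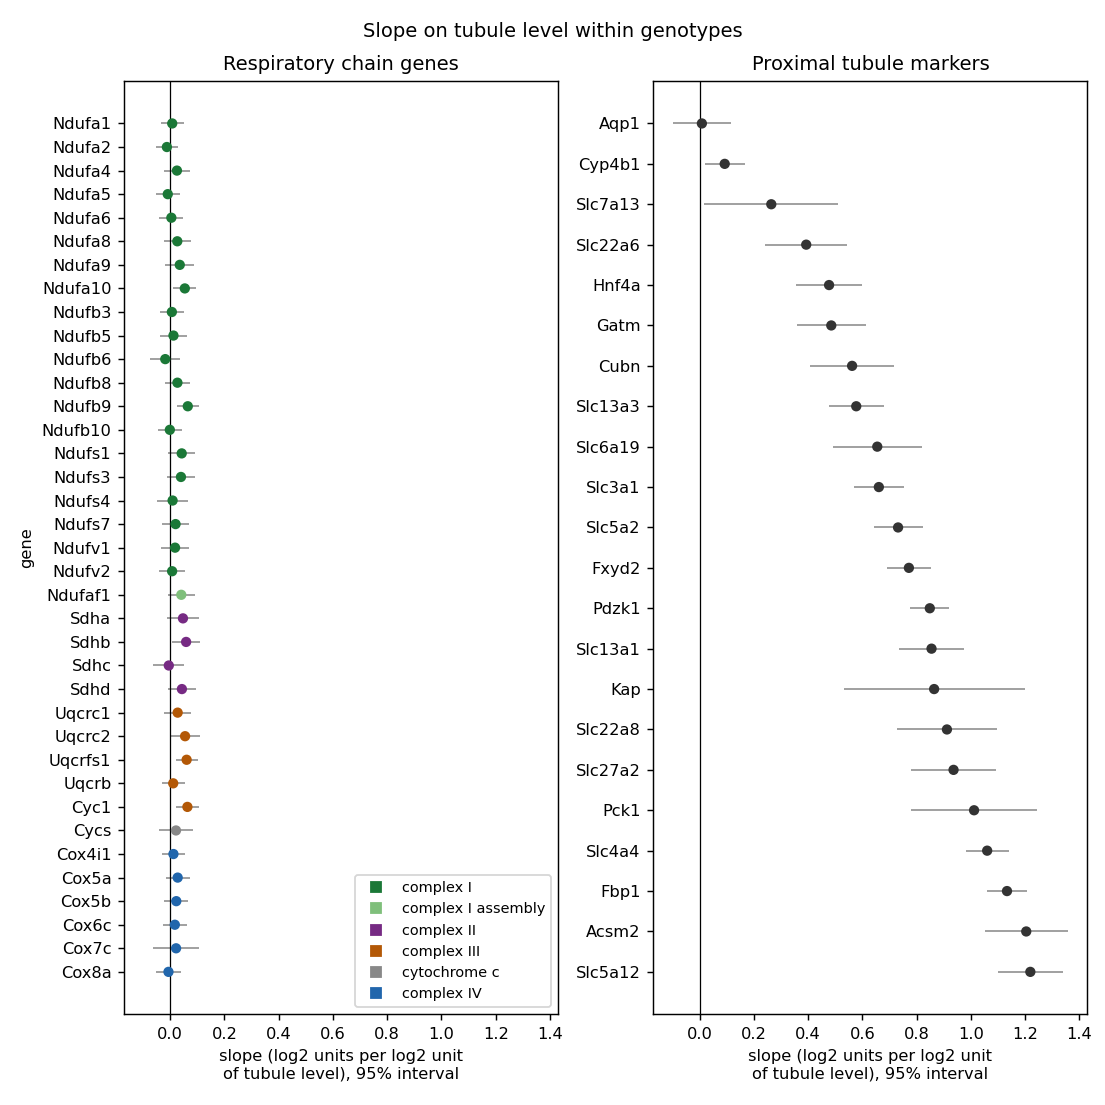
Slope on tubule level within genotypes in log2 units per log2 unit (points) with 95% intervals (lines), for the 37 respiratory chain genes at the left and 22 proximal tubule markers at the right, on the same axis. The respiratory chain genes lie between -0.018 and 0.065, and the median of the markers is 0.75.

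By complex the median slope was 0.015 in complex I, 0.045 in complex II, 0.055 in complex III and 0.020 in complex IV. The steepest gene was Ndufb9, an accessory subunit of complex I, with 11.77, 11.69, 11.80, 11.84 and 11.58 in wild types 1 to 5 and 11.83, 11.81, 11.77, 11.99 and 11.65 in mutants 1 to 5. Wild type 5 and mutant 5, with the least tubule, were the lowest mice, and mutant 4, with the most, was the highest. Its slope was 0.065 ± 0.018 (SE, limma adjusted p = 0.229). Pearson's r with tubule level over 10 mice was 0.94 (permutation p = 4e-05) and Spearman's rho was 0.95 (permutation p = 0.0001). Without wild type 5 and mutant 5, the mice farthest from the median tubule level, r was 0.92 (exact permutation p = 0.00221). The other strong probe set of Ndufb9 gave a slope of 0.033 ± 0.025 (SE).

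In complex III the Rieske iron-sulfur protein gene Uqcrfs1 was 11.20, 11.09, 11.16, 11.22 and 10.92 in wild types 1 to 5 and 11.20, 11.13, 11.17, 11.32 and 11.09 in mutants 1 to 5. The order of mice was again close to that of tubule level, with wild type 5 lowest and mutant 4 highest. Its slope was 0.061 ± 0.018 (SE, limma adjusted p = 0.304), with r = 0.93 (permutation p = 6e-05), rho = 0.93 (permutation p = 0.00036), and r = 0.92 without the same mice (exact permutation p = 0.0026). Cyc1, the cytochrome c1 of complex III, was 11.92, 11.74, 11.79, 11.87 and 11.58 in wild types 1 to 5 and 11.87, 11.73, 11.78, 11.93 and 11.71 in mutants 1 to 5. Wild type 5 was the lowest mouse and mutant 4 the highest, level with wild type 1. The slope of Cyc1 was 0.064 ± 0.019 (SE, limma adjusted p = 0.306), with r = 0.90 (permutation p = 0.00012), rho = 0.89 (permutation p = 0.00114), and r = 0.81 without those mice (exact permutation p = 0.00878).

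For 3 further genes r was lower and no longer passed a permutation p of 0.05 without wild type 5 and mutant 5. Ndufa10, a complex I subunit, was 11.28, 11.22, 11.21, 11.20 and 10.94 in wild types 1 to 5 and 11.20, 11.14, 11.10, 11.23 and 11.09 in mutants 1 to 5. Wild type 5 was the lowest mouse, and the others ran from 11.09 (mutant 5) to 11.28 (wild type 1). Its r was 0.82 (permutation p = 0.00395) over 10 mice, its rho was 0.62 (permutation p = 0.0602), and r was 0.40 (exact permutation p = 0.315) without them. Sdhb had r = 0.75 (permutation p = 0.0106), and 0.48 without them (exact permutation p = 0.227). Uqcrc2, a core protein of complex III, had r = 0.70 (permutation p = 0.0234), and 0.18 without them (exact permutation p = 0.672). The slope within genotypes changed little without these mice for Ndufa10 (0.054 with them and 0.048 without) and Sdhb (0.059 and 0.056), while that of Uqcrc2 was 0.055 with them and 0.017 without. Of the 37 relations computed, 33 had r above 0, 7 had a permutation p under 0.05 by Pearson's r and 3 by Spearman's rho, and the median r was 0.42 beside -0.12 over all genes. The seventh gene, Ndufs1, had r = 0.66 (permutation p = 0.0358), and 0.73 without wild type 5 and mutant 5 (exact permutation p = 0.05). Without these mice the median r was 0.44 and 7 genes again had p under 0.05, Ndufb9, Uqcrfs1 and Cyc1 among them. The other 4 passed only without them: Ndufb10 (r = 0.01 over 10 mice and 0.82 over 8), Cox5a (0.62 and 0.75), Cycs (0.34 and 0.74) and Ndufb8 (0.48 and 0.71). By Spearman's rho over the 8 mice none of these 4 passed, with exact permutation p from 0.0694 (Ndufb8) to 0.216 (Cycs). An r of at least 0.8 was found for 4 of the 37 genes (10.8%), beside 2.31% of all genes. The adjusted p over all probe sets is that of the limma slope, which none of the 37 passed.

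**Figure D5:**
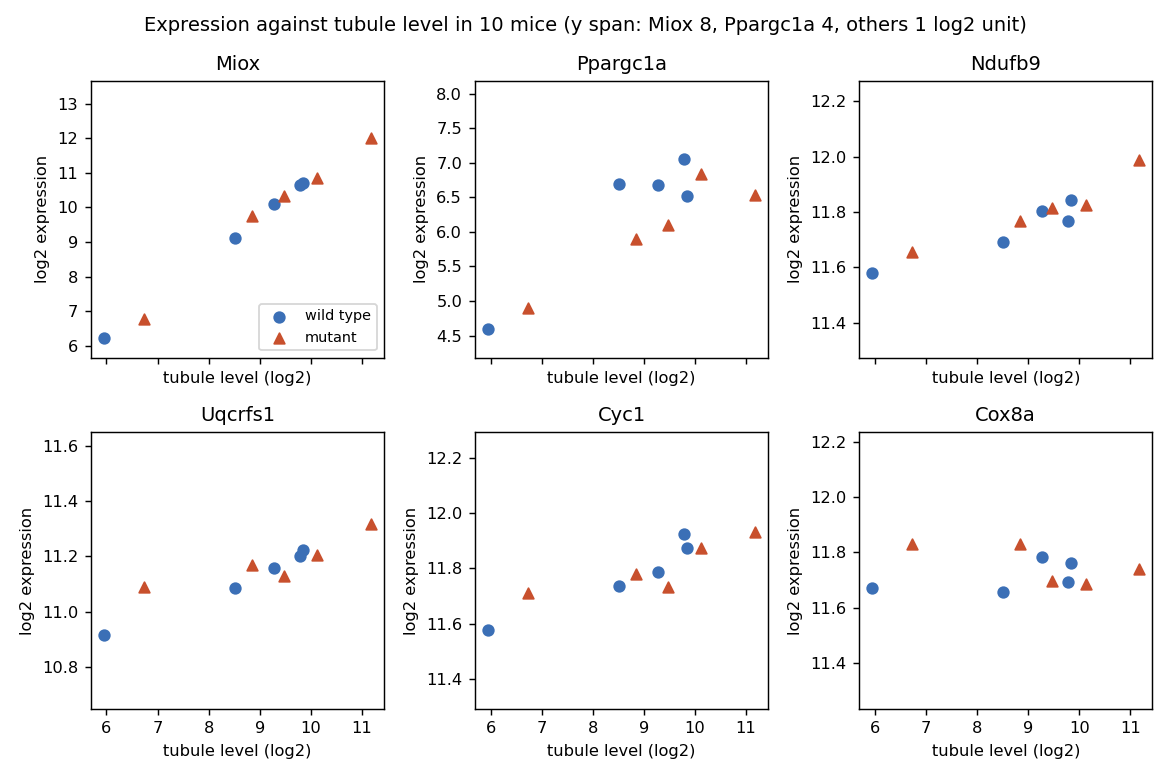
Log2 expression against tubule level (log2) in 10 mice, circles for wild type and triangles for mutant, for Miox (part of the tubule level), Ppargc1a, Ndufb9, Uqcrfs1, Cyc1 and Cox8a. The vertical span is 8 log2 units for Miox, 4 for Ppargc1a and 1 for the others, in which Ndufb9 (r = 0.94), Uqcrfs1 (0.93) and Cyc1 (0.90) climb and Cox8a (-0.07) stays level.

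Slopes at the low end lay at or below 0. The lowest of complex I were Ndufb6 (-0.018 ± 0.025 SE) and Ndufa2 (-0.012 ± 0.019 SE), that of complex II was Sdhc (-0.0049 ± 0.026 SE), and that of complex IV was Cox8a (-0.0061 ± 0.020 SE). Cytochrome c had a slope of 0.022 ± 0.028 (SE). The slope was also compared between genotypes. Its difference was called for 0 of 37 genes by limma, beside 0.00222% of probe sets, with a smallest adjusted p of 0.635, and 0 of 37 passed an unadjusted p of 0.05, beside 6.1% of genes. Of the podocyte markers 10 of 10 had slopes below 0 in the same fit, beside 63.4% of all genes, with a median of -0.049. None was called by limma, and 3 passed an unadjusted p of 0.05, beside 8.45% of all genes in either direction. The part of that shift in the slopes of the respiratory chain genes was not tested.

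The genes of the set varied little between mice of 1 genotype. The SD within genotypes had a median of 0.0912 over the 37 genes, from 0.0472 to 0.184, beside 0.132 over all genes. Signal level was not matched in this comparison, and low spread was not particular to the set. The median SE of the genotype difference was 0.067 over the 37 genes and 0.084 over all genes. It was 0.059 over the other subunits of the chain, 0.060 over the cytosolic ribosome and 0.062 over ATP synthase. The range over 10 mice had a median of 0.289 log2 units, a maximum of 0.863 for Ndufaf1 and, without that gene, of 0.640 for the weakly measured Cox7c. Tubule level spanned 5.22 log2 units over the same mice.

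Other probe sets of the same genes gave 0 calls by genotype and 0 by slope among 36, of which 28 in 20 genes had a mean of 6 or more. Ndufaf1 had only 1 probe set, so its difference has no second probe set beside it. For Ndufv1, the flavin-binding subunit of complex I, another probe set differed by 0.56 ± 0.18 (SE, limma adjusted p = 0.273) by genotype, while its main probe set gave 0.10 and the last one 0.14. The slope had the opposite sign in 7 of the 28 other probe sets with a mean of 6 or more, in 6 genes (Ndufa10, Ndufv1, Sdhc, Uqcrb, Cox5b and Cox6c). For Ndufa10 it was -0.015 ± 0.024 in the other probe set and 0.054 ± 0.019 in the main one (SE). Different probe sets can read different ends or forms of a transcript.

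The wider mitochondrial gene lists held no gene called by genotype with limma. These were 22 other subunits of the chain, 16 of ATP synthase, 27 assembly factors, 9 tissue isoforms, 16 regulators of mitochondrial biogenesis, 12 genes of the citric acid cycle, 15 of fatty acid oxidation, 26 of the mitochondrial ribosome, 13 of mitochondrial import and 1 encoded by mitochondrial DNA. At an unadjusted limma p under 0.05 there were 0 genes in the first 3 lists, 0 regulators and 0 of the mitochondrial ribosome. There were 1 tissue isoform, 2 citric acid cycle genes and 1 of import, all higher in mutants. Fatty acid oxidation had 3, of which 2 were higher. These counts stand beside 11% of all genes in either direction. Small median differences above 0 were found in most of these lists, beside 0.07 over the 37 genes. The median was 0.11 over the citric acid cycle (11 of 12 above 0), 0.06 over import (12 of 13), 0.06 over the mitochondrial ribosome (21 of 26), 0.06 over fatty acid oxidation (11 of 15), 0.05 over ATP synthase (13 of 16), 0.03 over assembly factors (22 of 27) and 0.02 over the other subunits (13 of 22). It was -0.02 over the tissue isoforms (4 of 9) and -0.03 over the regulators (5 of 16). Among the other assembly factors the gene with the smallest p was Nubpl, which delivers iron-sulfur clusters to complex I, at 0.18 ± 0.09 (SE, limma adjusted p = 0.592). The further complex I assembly factors Ndufaf2 (0.14 ± 0.08 SE), Ndufaf3 (0.03 ± 0.07 SE) and Ndufaf4 (-0.03 ± 0.07 SE) were not called. The mitochondrially encoded complex I subunit ND5 differed by 0.15 ± 0.14 (SE). Among 11 glycolysis genes 0 were called and 5 passed an unadjusted p of 0.05, all higher in mutants, beside 5.62% of all genes that were higher at this p, and the median was 0.11 with 9 of 11 above 0. Among 18 cytosolic ribosome genes 0 were called by limma and 0 passed an unadjusted p of 0.05, with a median of 0.01.

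The median slope on tubule level was 0.044 over fatty acid oxidation (14 of 15 above 0) and 0.028 over the citric acid cycle (10 of 12). It was 0.013 over the other subunits (16 of 22) and 0.007 over ATP synthase (10 of 16). Over the mitochondrial ribosome it was -0.003 (10 of 26) and over import -0.006 (6 of 13). By slope limma called 1 gene of these lists, Ppargc1a, which encodes the coactivator PGC-1alpha of mitochondrial biogenesis. Ppargc1a was 7.05, 6.69, 6.68, 6.51 and 4.60 in wild types 1 to 5 and 6.83, 6.11, 5.90, 6.53 and 4.90 in mutants 1 to 5. The 2 mice with the least tubule were far below the rest, and the other 8 did not follow tubule level closely. Its slope was 0.49 ± 0.06 (SE, limma adjusted p = 0.00255), but without wild type 5 and mutant 5 it was 0.24 (limma adjusted p = 0.543), and among wild types 2 to 4 and mutants 1 to 4 alone it was 0.21 (limma adjusted p = 0.693). By genotype it differed by -0.25 ± 0.46 (SE, limma adjusted p = 0.911). The nuclear receptor gene Esrrg had a slope of 0.26 ± 0.05 (SE, limma adjusted p = 0.0612), and the fatty acid oxidation gene Hadh one of 0.12 ± 0.03 (SE, limma adjusted p = 0.129). The regulators whose motifs were searched had slopes of -0.052 ± 0.032 (Nrf1), 0.014 ± 0.018 (Gabpa), 0.015 ± 0.021 (Esrra) and -0.023 ± 0.022 (Yy1), with SE, and none was called.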

How the data were processed

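Glomeruli were taken from mice perfused with magnetic beads, and biotin-labelled RNA was hybridised to expression arrays, per the labels and the design text. The deposited values are log2 expression values made by the authors with RMA (background correction, quantile normalization and probe summaries), per the submitters' processing notes, and its version is not given in the sources used here. RMA compresses differences of weak probe sets. All 10 columns were assigned by title, and 0 belonged to other samples. Of 45101 probe sets 64 controls were left out, and of the 45037 tested 34945 had 1 gene in the platform annotation, 932 several and 9160 none.

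Genotype, slope on tubule level with genotype in the model, genotype at equal tubule level and their interaction were fitted with limma (version 3.58.1, R version 4.3.3) over all 45037 probe sets, two-sided, with Benjamini-Hochberg adjustment. Calls are adjusted p under 0.05, and every adjusted p comes from limma. The limma fits were also run on simulated data in which the noise of each probe set was independent, so that check does not cover correlated genes. Permutation tests of correlations used 100000 resamples for 10 mice and all arrangements for 8, two-sided (scipy version 1.17.1). Figures used matplotlib (version 3.10.9).

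Members, lists and tests were chosen with earlier results of these data known. Named genes are those called by genotype, per complex the 2 with the smallest genotype p, the 3 steepest and 2 shallowest slopes, those whose other probe sets had slopes of opposite sign, and up to 3 per other list by slope p. Ndufs3, Ndufa8, Ndufa1, Ndufa9, Ndufs4, Ndufv2, Ndufs7, Ndufb8, Ndufb10, Tyro3 and Slc22a6 were named after their values were seen. So were Nubpl, Ndufaf2, Ndufaf3, Nrf1, Gabpa, Esrra, Yy1, Kdr, Podxl and Synpo. Alternatives covered centring, quantile normalization, a signal filter of 6, gene means, other variance models, other tubule levels and each mouse left out.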

Additional observations from a re-analysis of the deposited data

Results flagged for a closer look

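Of 78 groups of 5 mice examined for a mouse far from the others of its genotype (37 genes, Ppargc1a and tubule level, in both genotypes), 5 held one, and chance alone flags about 1 in 20 groups. Ndufa10 was 10.94 in wild type 5, below 11.20 to 11.28 in the other wild types. Ndufb6 was 11.49 in mutant 3, below 11.71 to 11.76 in the other mutants. Ndufs1 was 10.77 in mutant 4, above 10.57 to 10.63 in the other mutants. Ndufv2 was 11.81 in mutant 1, below 11.92 to 11.96 in the other mutants. Ppargc1a was 4.60 in wild type 5, below 6.51 to 7.05 in the other wild types. Wild type 5 was the mouse with the lowest tubule level and mutant 4 the one with the highest, and the part of tubule in these values was not tested.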

How the results depend on the processing

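The count of genes called by genotype was 1 under all 22 alternatives, Ndufaf1 in each, with differences of 0.53 to 0.62 and limma adjusted p of 0.00157 to 0.0301. The count called by slope was 0 under all 26 alternatives, and that of the interaction 0 under all 24. At equal tubule level the count was 1 under 23 of 24 alternatives, and 0 when limited to wild types 2 to 4 and mutants 1 to 4 (Ndufaf1 0.55, adjusted p = 0.0887). This setting leaves fewer mice, and otherwise the cause was not tested. The alternatives of the fits at equal tubule level and of the interaction were chosen after seeing the data, as was leaving out wild type 5 and mutant 5 from the genotype fit. The median slope of the 37 genes was 0.071 instead of 0.022 when tubule level was taken from distal nephron markers. Single estimates near 0 changed sign with the setting, for example Cyc1 by genotype under 5 of 22 alternatives and Sdhc by slope under 8 of 26. No paired analysis was possible because the sources used here do not name litters and replicate numbers follow only the order of accession. The number of arrays and the weak signal of Cox7c limit precision, and intervals cover the spread between these mice alone.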
